A study of Rattus norvegicus with 28 samples.

Results

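The mitochondrial genome carries its own small set of protein genes, and each of them encodes a membrane subunit of the respiratory chain. This account follows 10 of them through the RNA of neural progenitor cells, out of 32545 genes in the count table. Their identifiers were given as a fixed list with a name for each, and the deposited table was searched for those 10 rows, all of which were found. The list holds 5 subunits of complex I: Nd1 (ENSRNOG00000030644), Nd2 (ENSRNOG00000031033), Nd4 (ENSRNOG00000029707), Nd5 (ENSRNOG00000029971) and Nd6 (ENSRNOG00000029042). It holds the cytochrome b gene of complex III, Cyb (ENSRNOG00000031766), and 3 subunits of complex IV, Co1 (ENSRNOG00000034234), Co2 (ENSRNOG00000030371) and Co3 (ENSRNOG00000030700). The last is 1 subunit of the ATP synthase, Atp6 (ENSRNOG00000031979). The files hold identifiers only, so the names rest on that list and were not checked against another source here.

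As background, electrons enter the chain at complex I, pass through complex III and reach oxygen at complex IV, and the proton gradient that these complexes build drives the ATP synthase. The mitochondrial genome is transcribed from both strands into long precursors that are then cleaved, so that its genes share promoters rather than having their own. Along one strand lie, in this order, Nd1, Nd2, Co1, Co2, Atp6, Co3, Nd4, Nd5 and Cyb. Nd6 is encoded on the opposite strand, between Nd5 and Cyb. The remaining subunits of these complexes come from the nucleus. Neurons depend heavily on this chain, while neural progenitors are known for a larger use of glycolysis.

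All samples carry the label of neural progenitor cells of the rat. They form 7 groups, each with 4 libraries of total RNA. Culture libraries come from cells under culture conditions. Uninjured libraries are labelled as exposed to spinal cord for 2, 3 or 4 weeks, and injured libraries as exposed to injured spinal cord for 2, 3 or 4 weeks. Reading the cord without the word injury as uninjured is an interpretation of the labels. The study's title concerns progenitor transplantation into injured spinal cord. The labels give no strain, age or sex, do not say how the exposure was made or whether cells were separated from host tissue, and do not say whether the libraries within a group are from different animals or cultures. P-values thus measure the spread between these libraries, which may be technical. The label of progenitor cells could not be set against marker genes, because 0 of the identifiers matched a gene symbol in the reference table used here.

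One library stood apart before any comparison. In injured week 3 replicate 3 all 10 members had 0 counts, although its total of 3614226 counts was like that of the other libraries of its group, which predict between 293 and 29624 counts for each member. The same library had 0 counts for 2755 of 9636 genes for which each of the other libraries predicts at least 20. Its zeros were therefore treated as missing values, and injured week 3 has n = 3 throughout. With that library in the fit, at its zeros, no member was called in any comparison of injured with uninjured cord. Libraries held 2605188 to 6908508 counts, except the 8 of week 2, which held 84532 to 446331. Week 2 and low depth therefore cannot be told apart.

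The members' mean combined share of all counts was highest after injured cord for 4 weeks and lowest after uninjured cord for 3 weeks. Libraries of these groups overlapped others. The lowest injured week 4 library (3.64%) was below libraries of culture, injured week 3 and uninjured week 2, and uninjured week 3 overlapped uninjured week 4. In culture the 10 genes held 3.91, 3.80, 3.54 and 3.46% of the counts in the 4 libraries, a mean of 3.68% ± 0.210 (SD, n = 4). In uninjured week 3 they held 2.10, 1.54, 2.31 and 1.58%, and in uninjured week 4 they held 1.74, 2.17, 2.37 and 2.14%. In injured week 3 they held 3.79, 3.39 and 3.17%, and in injured week 4 they held 3.64, 4.67, 4.36 and 4.09%. All 8 uninjured libraries of weeks 3 and 4 lay below every injured library of those weeks and below every culture library. The means were 1.88% ± 0.383 and 2.10% ± 0.261 in uninjured weeks 3 and 4 (SD, n = 4 each), against 3.45% ± 0.312 (SD, n = 3) and 4.19% ± 0.436 (SD, n = 4) in injured weeks 3 and 4. At week 2 the conditions overlapped, with 2.05, 3.88, 3.03 and 2.46% in uninjured and 2.65, 2.73, 2.67 and 2.85% in injured libraries, the injured values lying inside the uninjured range. These sums are descriptions and carry no test.

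**Figure D1:**
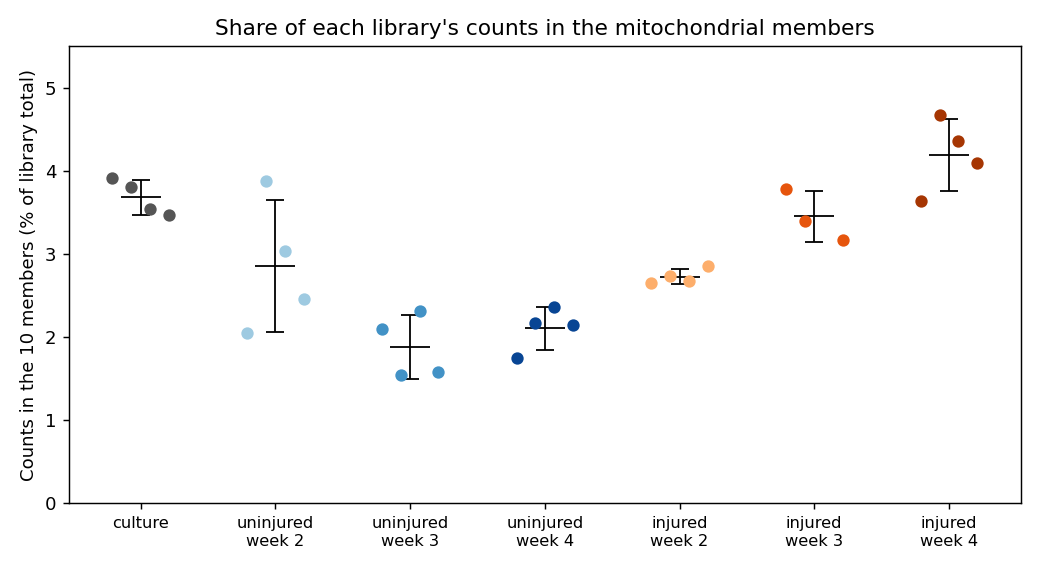
Share of each library's counts held by the 10 members, in percent of the library total, by group. Points are libraries, horizontal marks are means and bars are SD (n = 4, and n = 3 for injured week 3, without replicate 3). Uninjured weeks 3 and 4 lie between 1.54% and 2.37%, below all libraries of culture and of injured weeks 3 and 4.

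The share also depends on what a few other very abundant genes take of each total. The 10 most abundant other genes held 18.2% ± 3.53 (SD, n = 4) of the counts in uninjured week 3, and 31.6% ± 4.63 (SD, n = 4) in injured week 4. They held 23.1% ± 1.91 (SD, n = 4) in uninjured week 4 and 23.1% ± 3.01 (SD, n = 3) in injured week 3. The members' mean shares in those groups were 2.10% and 3.45%. In the uninjured week 2 libraries the abundant genes held 21.4, 39.9, 31.1 and 24.2%, which ranks the libraries as the members' shares do. In culture they held 28.1, 23.8, 24.6 and 24.3%, which ranks them otherwise. Whether the abundant genes account for the members' share was not tested. With those genes left out of the total, a choice made after the values were seen, the members held 2.32% ± 0.573 in uninjured week 3 and 6.17% ± 1.04 in injured week 4 (SD, n = 4 each). Among the genes left out are those ranked 1 and 3 by Spearman correlation with the members' median (0.956 and 0.889). The first is ENSRNOG00000043866, described below. Leaving them out thus also removes counts that moved with the members. Very abundant genes also change what a fixed total is worth for every other gene, so the levels below are CPM (counts scaled to a common library size) on sizes corrected by the TMM method. In bulk RNA, fewer cells of a type and less RNA per cell cannot be told apart, and RNA of surrounding cord tissue was not separated from RNA of the progenitors by anything in the labels. Marker genes of other cell types could not be identified by name, so their part in these differences was not tested.

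Co1, the catalytic core subunit of complex IV, had the pattern of levels that most members shared. It measured 8645, 8177, 7459.7 and 7540.2 CPM in culture. It fell to 4783, 3462, 5967 and 3388 CPM in uninjured week 3 and 4739, 5584, 5152 and 5467 CPM in uninjured week 4. In injured week 3 it measured 6982, 6677 and 5628 CPM, and in injured week 4 9308, 14554, 10819 and 10385 CPM. Every injured week 4 library was above every culture library, and the culture libraries were above all uninjured libraries of weeks 3 and 4. At week 2 the uninjured libraries ran widely, at 2814, 7806, 6409.7 and 4113 CPM, from 689, 2170, 2692 and 989 counts, and the injured ones measured 2628, 4949, 4924 and 5549 CPM.

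The other complex IV subunits also had their highest mean in injured week 4. Co2, which receives electrons from cytochrome c, stood at 3503 ± 329.8 CPM (SD, n = 4) in culture, 2193 ± 324 CPM (SD, n = 4) in uninjured week 4 and 5317 ± 1233 CPM (SD, n = 4) in injured week 4. Co3, a structural subunit of the core, stood at 2843 ± 193 CPM (SD, n = 4), 2327 ± 238 CPM (SD, n = 4) and 4500.4 ± 1029.7 CPM (SD, n = 4) in the same groups. Atp6, part of the proton channel of the ATP synthase, stood at 6949 ± 309.9 CPM (SD, n = 4), 4259 ± 741 CPM (SD, n = 4) and 10864 ± 1837 CPM (SD, n = 4). Cyb, the subunit of complex III that oxidizes ubiquinol, stood at 4651 ± 552 CPM (SD, n = 4), 2597 ± 148 CPM (SD, n = 4) and 5727 ± 889 CPM (SD, n = 4). For Co2 and Atp6 the lowest injured week 4 library was above the highest culture library, while for Co3 the next group in order, uninjured week 2, overlapped it, and for Cyb the culture libraries did.

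Within complex I the members divided. Nd1 stood at 3953 ± 406 CPM (SD, n = 4) in culture, 2506 ± 219 CPM (SD, n = 4) in uninjured week 4 and 5962 ± 1057 CPM (SD, n = 4) in injured week 4. Nd2 stood at 3438 ± 196 CPM (SD, n = 4), 1665 ± 480.4 CPM (SD, n = 4) and 4880.4 ± 738 CPM (SD, n = 4). Both belong to the membrane arm that pumps protons, and both were highest in injured week 4. Nd4, Nd5 and Nd6, subunits of the same arm, had their highest mean in culture. For Nd4 the culture and injured week 4 libraries overlapped. Nd5 measured 4731, 3899, 3449.7 and 3503 CPM in culture, 3179, 2009 and 2463 CPM in injured week 3 and 2497, 2119.9, 3015 and 2469.6 CPM in injured week 4. It measured 1327, 951, 1076 and 1018 CPM in uninjured week 3 and 987, 873, 1633 and 1113 CPM in uninjured week 4. The culture libraries were above all exposed libraries, and the injured libraries of weeks 3 and 4 above all uninjured libraries of those weeks.

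Nd6, the member on the opposite strand, gave few reads. It measured 308, 234, 208 and 222 CPM in culture, from 1735, 1223, 1147 and 1516 counts, and 126.1, 131, 93.9 and 98.2 CPM in injured week 4. In uninjured week 4 it measured 80.9, 50.5, 58.6 and 73.6 CPM. The 3 groups did not overlap. The uninjured week 2 libraries held only 15, 1, 22 and 4 Nd6 counts, and the injured week 2 libraries 9, 17, 44 and 33, so its week 2 levels rest on very few reads. Nd4 was also sparse at week 2, with 11, 26, 26 and 3 counts in the uninjured libraries. It stood at 281 ± 39.9 CPM (SD, n = 4) in culture, 261 ± 26.7 CPM (SD, n = 4) in injured week 4 and 89.2 ± 23.7 CPM (SD, n = 4) in uninjured week 4. The counting rule for strand, for overlapping genes and for reads shared with nuclear copies of mitochondrial DNA is not given in the sources used here. Without it, reads of Nd6 and of transcripts of the other strand cannot be told apart, and the counts of all members are uncertain to that extent.

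**Figure D2:**
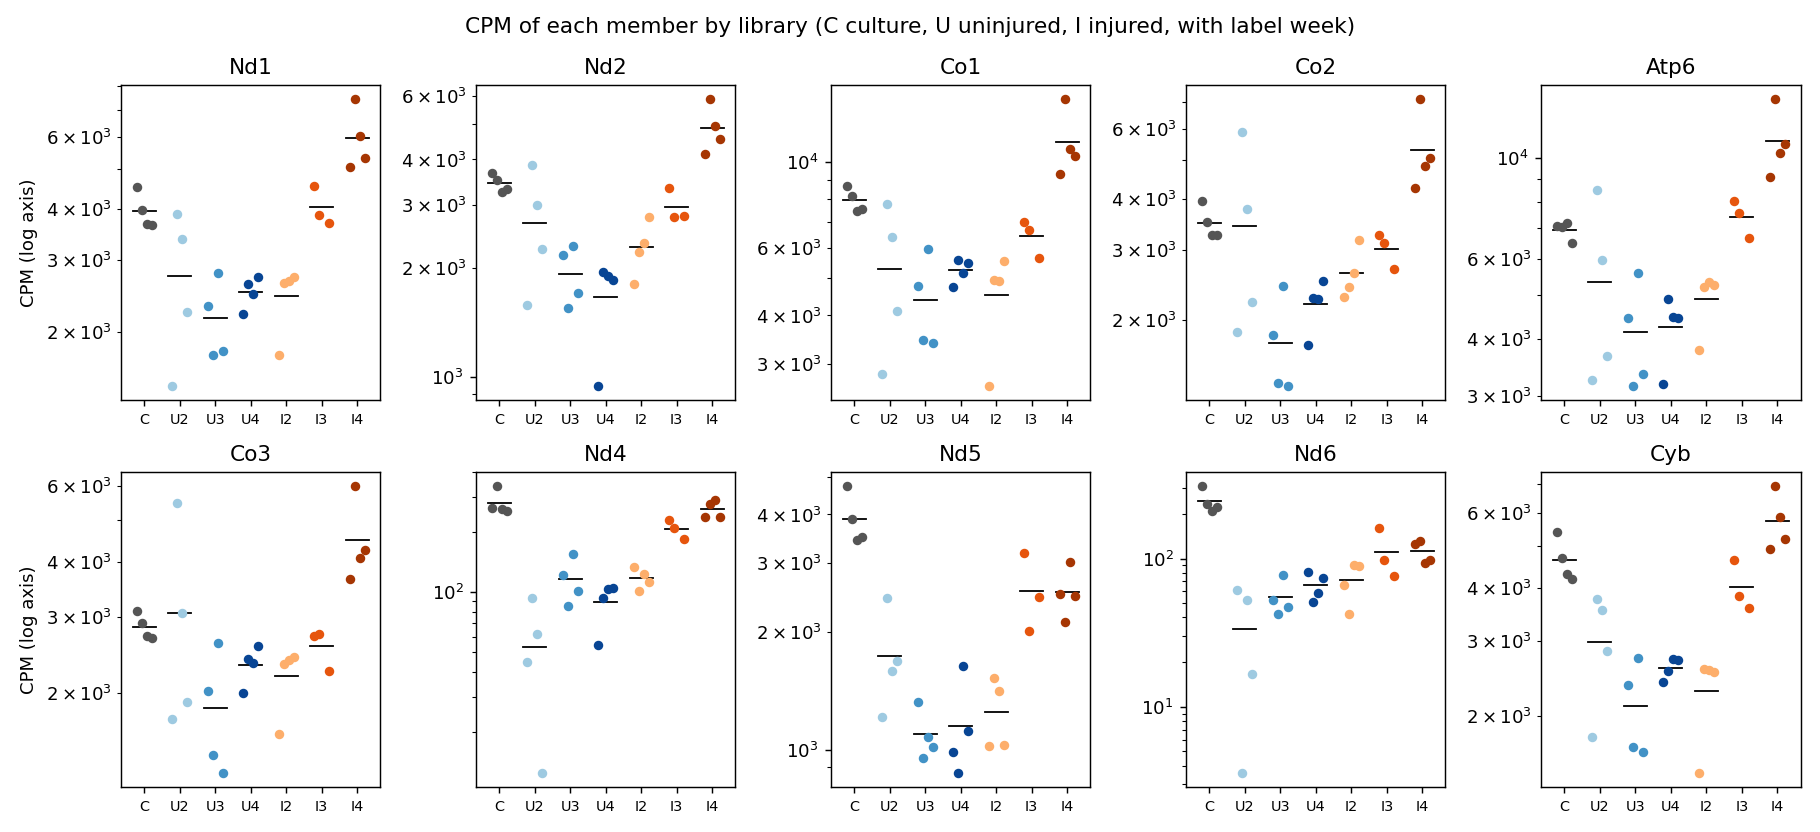
CPM of each member in each library, on log axes that differ between panels; the line is the group mean. Groups are culture (C), uninjured (U) and injured (I) with the label week, and injured week 3 is without replicate 3. Nd1, Nd2, Co1, Co2, Atp6, Co3 and Cyb have their highest mean in injured week 4, and Nd4, Nd5 and Nd6 in culture.

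The order of the groups was close for most members. Injured week 4 had the highest mean for 7 members and culture for 3. Uninjured week 3 had the lowest mean for 7, uninjured week 2 for 2 (Nd4 and Nd6) and uninjured week 4 for 1 (Nd2). Injured week 3 ranked between 2 and 4 for all 10. Injured week 2 ranked between 4 and 6, close to the uninjured groups. In the lower part of the order neighbouring groups overlapped: from place 4 down, no pair of neighbours was separated in any member. Injured week 4 was separated from the next group in 5 members (Nd1, Nd2, Co1, Co2 and Atp6) among the 7 that it led.

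Exposure to injured cord was set against uninjured cord at the same label week, with edgeR's quasi-likelihood test and Benjamini-Hochberg adjustment over 14282 genes, from 1 fit of 27 libraries. At week 4, 9 of the 10 members rose, where 12.1% of all genes tested were called higher and 27.3% either way. Their folds ran from 1.93 for Co3 to 2.93 for Nd2. The median log2 fold change of the members was 1.20 and that of all genes tested 0.007. Nd2 had a log2 change of 1.55 ± 0.24 (standard error, adjusted p = 8.77e-07), and Nd4 had 1.55 with a standard error of 0.27 (adjusted p = 9.43e-06). Atp6 rose by 1.35 ± 0.23 (standard error, adjusted p = 9.14e-06), and Nd1 by 1.25 with a standard error of 0.23 (adjusted p = 2.55e-05). Co2, Cyb, Nd5 and Co1 rose by 1.28, 1.14, 1.13 and 1.11 on the log2 scale, with standard errors of 0.25, 0.22, 0.23 and 0.24. Nd6 had a log2 change of 0.77 ± 0.30 (standard error, adjusted p = 0.0505), just outside the threshold. In all 10 members every injured week 4 library was above every uninjured one. How many of all genes tested separate in this way was not counted, in this or any other comparison, so separation is not read as a trait of the members. With library totals as they are and no scaling factors, 9 members were still called, where 27.6% of all genes were called either way. Of the called genes 32.3% were then higher, against 44.2% with TMM.

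One library lay low for a member in this comparison. Uninjured week 4 replicate 1 had 947 CPM of Nd2, while its 3 companions had 1860.2 to 1949. Leaving out any 1 of the 27 libraries left 9 or 10 members called at week 4. For fits with 1 library left out, the share of all genes called was not kept, in this or any other comparison.

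At week 3, 8 of 10 members rose, where 20.7% of genes were called higher and 46% either way. RLE scaling moved the median of all genes by 0.25 on the log2 scale. With it 10 members were called higher, where 49.4% of all genes were called either way. Of the called genes 55.6% were then higher, against 45% with TMM. Relative to the median of all genes the members' median was 0.83 with both scalings. Nd5 had a log2 change of 1.22 ± 0.24 (standard error, adjusted p = 4.3e-05). Nd6 had 1.02 with a standard error of 0.32 (adjusted p = 0.00748) and Cyb 0.93 with a standard error of 0.24 (adjusted p = 0.00103). Nd1, Atp6, Nd4, Co2 and Nd2 rose by 0.90, 0.84, 0.84, 0.78 and 0.61. Co1 and Co3 did not pass, at 0.55 (95% interval 0.03 to 1.06, adjusted p = 0.0767) and 0.47 (95% interval -0.07 to 1.02, adjusted p = 0.153). The libraries of the 2 groups did not overlap in 7 members, a count that was not made over all genes. The number of members called fell to 4 without injured week 3 replicate 1, the highest of its 3 libraries for 9 members. It fell to 5 without uninjured week 3 replicate 2 and rose to 10 without uninjured week 3 replicate 3. Shares of all genes called were not kept for these fits.

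At week 2, 0 of 10 members were called by edgeR, where 3.37% of genes were, and 3 members had an unadjusted p under 0.05. DESeq2 called 1 member, where it called 10.8% of genes, and limma voom called 0 members and 0% of genes. The median log2 fold change was -0.22 over the members and -0.05 over all genes tested. Nd4 and Nd6 had the largest log2 fold changes, 1.09 (95% interval 0.41 to 1.77) and 1.07 (95% interval 0.21 to 1.93). The other 8 lay between -0.48 and -0.13. Co1, for instance, had -0.23 (95% interval -0.71 to 0.26), while its week 4 estimate was 1.11. The difference between weeks 2 and 4 was not tested. Without uninjured week 2 replicate 2, Nd4 alone was called (log2 fold change 1.46, adjusted p = 0.0201).

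Whether the effect of injury differed between weeks 3 and 4 was tested as an interaction. It passed for 1 member, Nd2, with a log2 change of 0.94 ± 0.34 (standard error, adjusted p = 0.0468), where 11.5% of all genes were called higher and 18.7% either way. Nd2 was 2.93-fold higher in injured than in uninjured cord at week 4 and 1.53-fold higher at week 3. The call did not hold without uninjured week 4 replicate 1, the library low in Nd2 (log2 fold change 0.74, adjusted p = 0.131), nor in 24 more of the 36 other settings tried, over which the adjusted p ran from 0.00663 to 0.689. The remaining 9 members had interaction values of -0.25 to 0.71 and adjusted p of 0.229 or more.

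Uninjured cord was set against culture. At week 3 all 10 members fell, where 23.9% of genes were called lower and 49.9% either way, and at week 4, 9 fell, where 20% were called lower and 46.3% either way. The median log2 fold changes of the members were -0.93 and -0.77 at weeks 3 and 4, against 0.01 and 0.05 over all genes. The falls were largest for Nd6, Nd5 and Nd4. Nd6 was 4.42-fold lower at week 3, a log2 change of -2.15 ± 0.31 (standard error, adjusted p = 9.8e-08), and Nd5 3.56-fold lower, a log2 change of -1.83 ± 0.23 (standard error, adjusted p = 6.29e-09). Nd4 was 2.42-fold lower at week 3 and 3.15-fold lower at week 4 (adjusted p = 7.14e-05 and 1.24e-06). For the other 7 the log2 fold changes ran from -1.14 for Cyb to -0.62 for Co3 at week 3. At week 4 they ran from -1.05 for Nd2 to -0.29 for Co3, and Co3 did not pass (95% interval -0.80 to 0.22, adjusted p = 0.362). At both weeks no uninjured library overlapped a culture library in any member, which was not counted over all genes. Culture libraries held 5273204 to 6908508 counts and uninjured week 4 libraries 2605188 to 4449811. With library depth as a covariate (its log2 total), 9 members were called at week 3 and 5 at week 4. The shares of all genes called either way were then 45.1% and 39%.

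At week 2 in uninjured cord, 5 members were called lower than in culture, where 22.1% of genes were called lower and 42.1% either way. Nd6 and Nd4 had log2 fold changes of -2.81 and -2.37, from the few counts given above, and Nd5 had a log2 change of -1.17 ± 0.23 (standard error, adjusted p = 6.3e-05). Cyb and Co1 fell by 0.64 and 0.59, and of the 5 only Co1 overlapped culture. The 5 that did not pass had -0.53 (Nd1), -0.38 (Atp6), -0.36 (Nd2), -0.03 (Co2) and 0.10 (Co3). In injured week 2, 7 members were called lower, where 25.7% of genes were called lower and 45% either way. No library overlapped culture in any of the 10 members, and such separation was not counted over all genes. Nd6 and Nd5 fell most, Nd5 with a log2 change of -1.64 ± 0.23 (standard error, adjusted p = 1.82e-07) and Nd6 with -1.74. Nd4, Cyb, Co1, Nd1 and Nd2 had -1.27, -1.02, -0.82, -0.69 and -0.58. Atp6, Co2 and Co3 did not pass, at -0.51, -0.41 and -0.37. The medians were -0.56 and -0.75 over the members in uninjured and injured cord, and -0.20 and -0.28 over all genes. With the library total as a covariate, which week nearly fixes, 0 members were called in either week 2 comparison, and the estimates of 6 called values changed sign. In the uninjured comparison the count was 3 with RLE factors, where 39.7% of genes were called either way. It ran from 3 to 8 as single libraries were left out, fits for which the share of all genes called was not kept. The count was 3 without uninjured week 2 replicate 1 and 8 without replicate 2.

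Injured cord at weeks 3 and 4 was then set against culture. At week 3 only Nd6 was called among the 10 members, and it fell, with a log2 change of -1.12 ± 0.33 (standard error, adjusted p = 0.00944), where 10% of genes were called lower and 19.2% either way. Without either injured week 3 replicate 2 or replicate 4 it no longer passed, and without replicate 1, uninjured week 3 replicate 3 or uninjured week 4 replicate 3 there were 2 calls. The members' median was -0.21 and that of all genes 0. The other 9 members had log2 fold changes of -0.61 (Nd5, 95% interval -1.11 to -0.11) to 0.09 (Atp6, 95% interval -0.40 to 0.59). At week 4, 3 members rose, where 18.1% of genes were called higher, and 2 fell, where 15.5% were called lower (33.6% either way). Those that rose were Co3, Atp6 and Nd1, by 0.66, 0.64 and 0.59 on the log2 scale (adjusted p = 0.0375, 0.0249 and 0.0372). Those that fell were Nd6, with a log2 change of -1.12 ± 0.30 (standard error, adjusted p = 0.00236), and Nd5, with a log2 change of -0.63 ± 0.23 (standard error, adjusted p = 0.028). Co2, Nd2 and Co1 had 0.60, 0.51 and 0.50 with adjusted p of 0.0543, 0.0881 and 0.104. Cyb and Nd4 had 0.30 and -0.11 and did not pass. In Co2, Nd2, Co1 and the 3 that rose every injured week 4 library was above every culture library.

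The rise above culture depended on scaling. TMM factors of the injured week 4 libraries were 0.731 to 0.868, the lowest of all groups. RLE factors moved the median of all genes by -0.12 and unscaled totals by -0.25. Of the called genes 46.4% and 40.6% were then higher, against 53.9% with TMM. No member was called higher and 2 were called lower under both, where 34.4% and 35.6% of genes were called either way. Relative to the median of all genes the members' median was 0.51, 0.52 and 0.50 with TMM, RLE and unscaled totals. Without injured week 4 replicate 2, the library with the highest share of members, 1 member was called in place of 5. The share of all genes called was not kept for fits with a library left out. Leaving out any other single library of injured week 4 or of culture gave 2 or 3 calls, as did leaving out 6 of the libraries that the contrast does not hold (injured week 2 replicate 4, uninjured week 2 replicates 3 and 4, uninjured week 3 replicates 1 and 3 and uninjured week 4 replicate 3).

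Weeks 3 and 4 were then compared within each condition. In uninjured cord 0 of 10 members were called by edgeR, where 0.525% of genes were. None had an unadjusted p under 0.05. DESeq2 called 0 members, where it called 5.02% of genes. Limma voom with quality weights called 5, where it called 19.7% of genes. The members' median was 0.23 and that of all genes 0.04. The log2 fold changes ran from -0.38 for Nd4 (95% interval -0.91 to 0.15) to 0.33 for Co3 (95% interval -0.17 to 0.84). In injured cord 4 members rose from week 3 to week 4, where 13.8% of genes were called higher and 21.6% either way. The medians were 0.56 over the members and -0.03 over all genes. The 4 were Co2, Co3, Co1 and Nd2, with log2 fold changes of 0.82, 0.81, 0.81 and 0.72 (adjusted p = 0.0233, 0.0287, 0.0202 and 0.0335). Nd5 and Nd6 stood at -0.01 (95% interval -0.50 to 0.48) and 0.01 (95% interval -0.63 to 0.65). Nd1, Atp6, Cyb and Nd4 did not pass either, at 0.56, 0.55, 0.51 and 0.33. The median of all genes moved by -0.16 with RLE factors and by -0.33 with unscaled totals. These left 1 and 0 members called, where 23.1% and 25.9% of genes were called either way. Of the called genes 52.1% and 41.1% were higher, against 63.9% with TMM. Leaving out single libraries gave 0 to 4 calls, and 0 in 9 of the 27 cases, among them each of injured week 4 replicates 2, 3 and 4 and injured week 3 replicate 4.

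**Figure D3:**
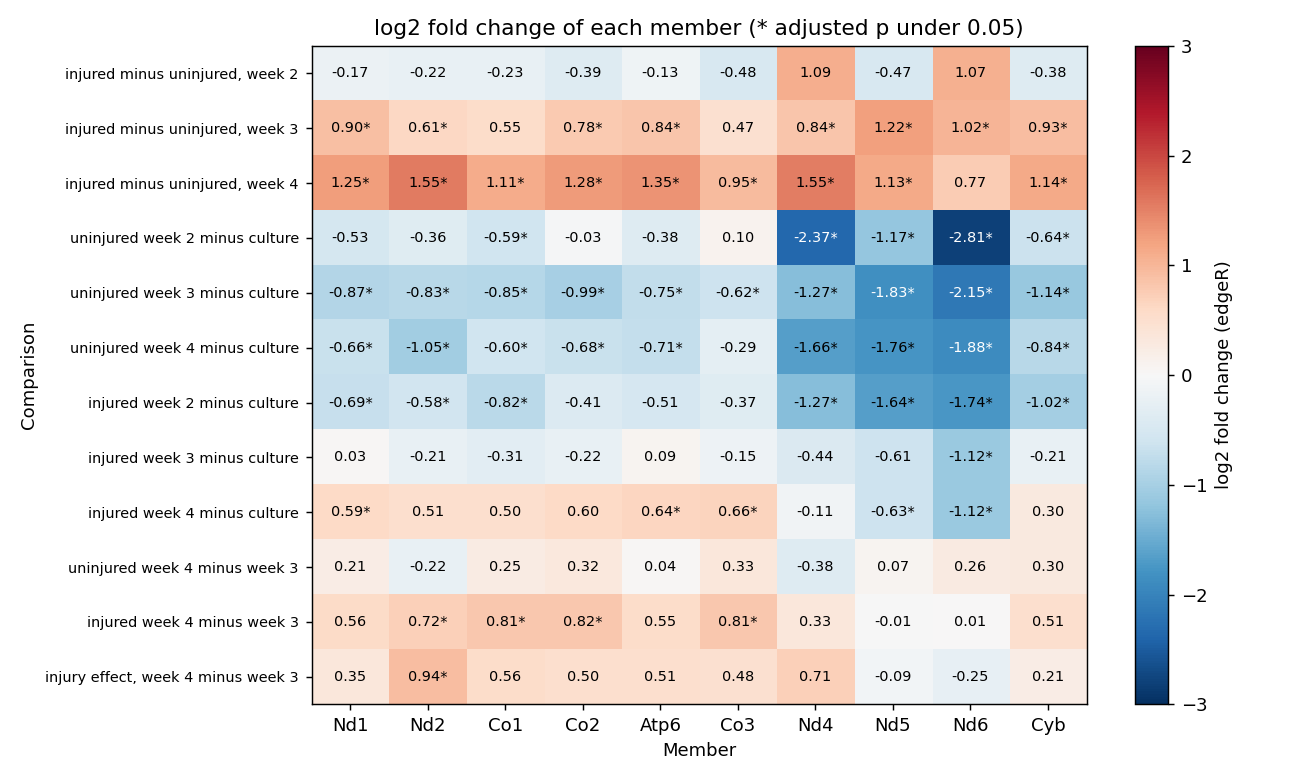
log2 fold change of each member (columns) in each of the 12 comparisons (rows), from the edgeR fit of 27 libraries; an asterisk marks an adjusted p under 0.05. All 10 values are positive for injured against uninjured cord at weeks 3 and 4, and all are negative for uninjured weeks 3 and 4 against culture. Nd4, Nd5 and Nd6 are negative in all 6 comparisons with culture.

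The proportions among the members do not depend on how libraries are scaled. In culture Nd5 held 11.3, 10.2, 9.65 and 9.98% of the 10 members' counts. In the 23 exposed libraries it held 3.32% to 8.58%, so that culture and exposed libraries did not overlap. Nd5 held 5.05% ± 1.21 in injured week 4, 5.23% ± 1.39 in uninjured week 4 and 5.74% ± 1.05 in uninjured week 3 (SD, n = 4 each), and 7.64% ± 1.33 in injured week 3 (SD, n = 3). Nd6 held 0.739, 0.610, 0.583 and 0.634% in culture and 0.00863% to 0.441% in exposed libraries, again without overlap. Nd4 held 0.638% to 0.891% in culture and 0.0594% to 0.804% in exposed libraries, which overlapped.

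Cyb, which lies beyond Nd6 from Nd5, had a share of 12.3% ± 0.467 in culture and 11.2% ± 0.412 in injured week 4 (SD, n = 4 each). The ratio of Nd5 to Cyb counts was 0.802 to 0.874 in culture and 0.306 to 0.693 in the 23 exposed libraries. It ran from 0.306 to 0.516 in injured week 4 and from 0.342 to 0.599 in uninjured week 4 (n = 4 each). Injured and uninjured cord at week 4 thus overlapped in this ratio while their levels of both genes were apart. Co3 held a larger share of the sum in uninjured week 4 than in culture, with 7.54% ± 0.0907 in culture and 10.5% ± 0.391 in uninjured week 4 (SD, n = 4 each). Its mean share was above culture in the other exposed groups too. It was 10.8% ± 1.76 and 9.30% ± 0.734 in uninjured weeks 2 and 3 (SD, n = 4 each). In injured weeks 2, 3 and 4 it was 9.66% ± 0.138, 7.72% ± 0.546 and 8.70% ± 0.544 (SD, n = 4, 3 and 4).

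A fit with the members' summed count as the library size puts these proportions on the log2 scale, as fold changes against culture with their standard errors. It was made after the shares were seen and on the same libraries, so it describes them and carries no test. Nd6 stood at -1.20 ± 0.38 in uninjured week 3, -1.07 ± 0.38 in uninjured week 4, -0.97 ± 0.42 in injured week 3 and -1.53 ± 0.39 in injured week 4. Nd5 stood at -0.84 ± 0.26, -0.98 ± 0.26, -0.43 ± 0.28 and -1.03 ± 0.26 in the same groups. Nd4 stood at -0.34 ± 0.29, -0.91 ± 0.29, -0.26 ± 0.31 and -0.54 ± 0.29. All 12 values are below 0, and the closest to 0 are those of Nd4 and Nd5 in injured week 3 and of Nd4 in uninjured week 3. At week 2, Nd6 and Nd4 rest on few counts, and Nd5 stood at -0.63 ± 0.26 in uninjured and -0.89 ± 0.26 in injured libraries. The other 7 members ran from -0.30 to 0.52 over the 6 comparisons, which share the same 4 culture libraries. Co3 stood at 0.52 ± 0.21 in uninjured week 2 and 0.48 ± 0.21 in uninjured week 4. These lie farther from 0 than Nd4 at week 3 in either condition and Nd5 in injured week 3, so the sizes of the 2 sets overlap.

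**Figure D4:**
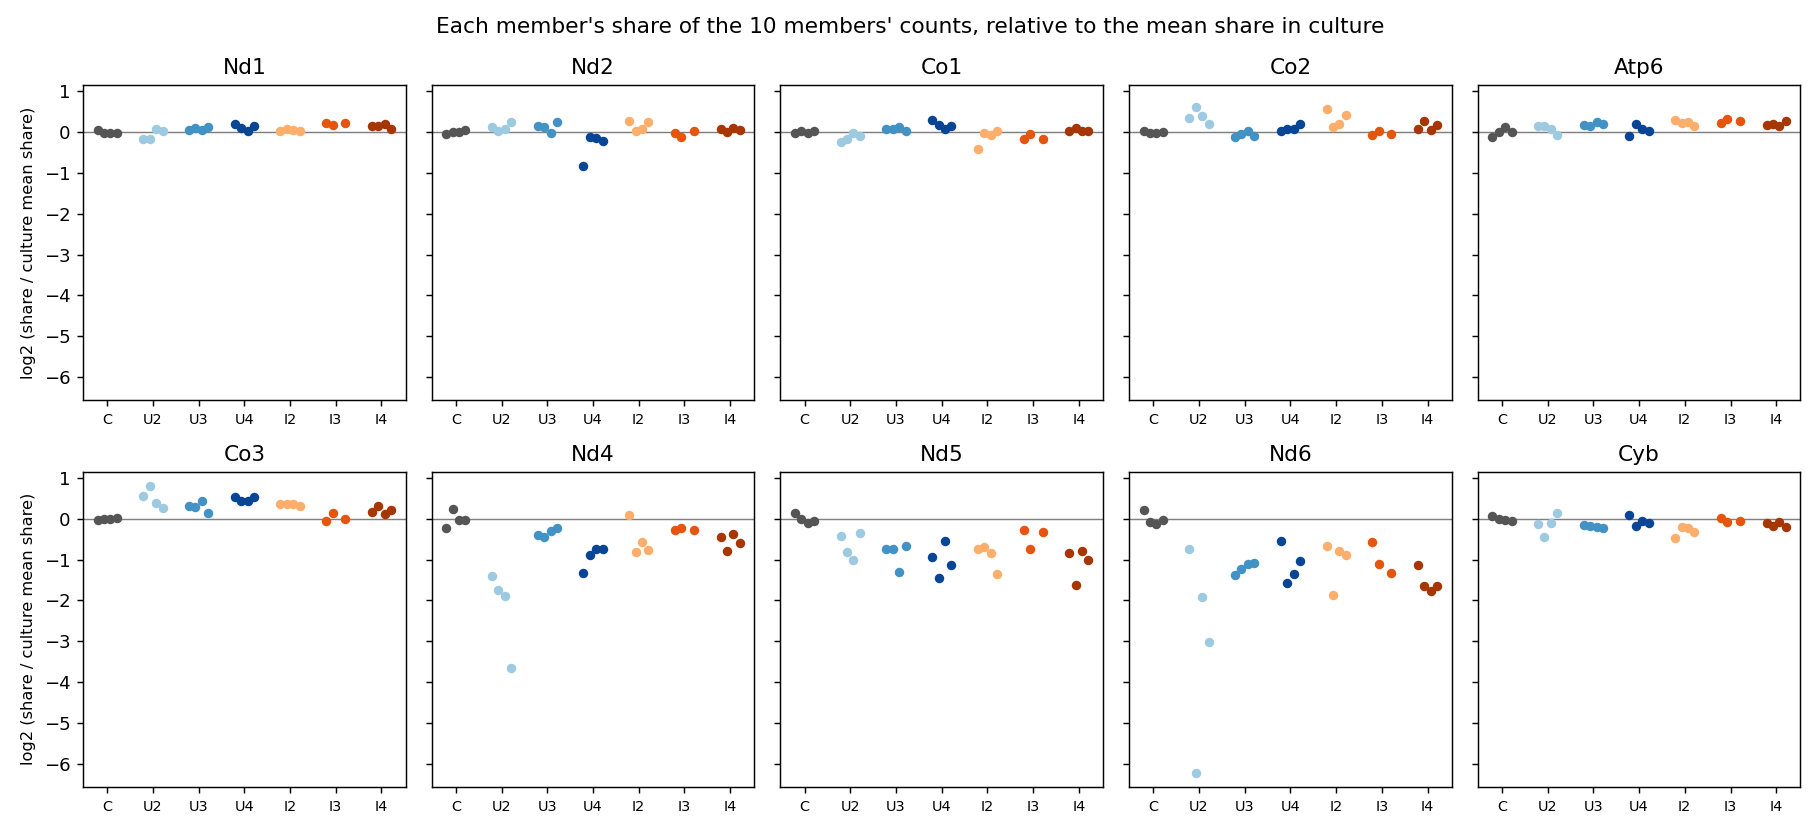
Each member's share of the 10 members' counts in each library, as log2 of its ratio to the mean share in culture, by group (labels as in the plot of CPM; 0 is the culture mean). Nd5 and Nd6 lie below 0 in all 23 exposed libraries. Nd1 and Atp6 stay between -0.17 and 0.31, and the rest range more widely. Single libraries reach -0.82 for Nd2, -0.47 for Cyb, -0.41 for Co1, 0.61 for Co2 and 0.80 for Co3. The lowest Nd6 point, in uninjured week 2, is 1 count.

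Across the 27 libraries, the 21 pairs among Nd1, Nd2, Co1, Co2, Atp6, Co3 and Cyb had Spearman correlations of log2 CPM of 0.867 to 0.969. Pairs of one of these with Nd4, Nd5 or Nd6 had 0.547 to 0.872. Because the groups differ in level, deviations from the group mean were also compared. Within groups the 21 pairs had Pearson correlations of 0.790 to 0.973, and the 3 pairs among Nd4, Nd5 and Nd6 had -0.417 to 0.261. Mixed pairs had -0.370 to 0.681 within groups. Over all libraries the 3 pairs among Nd4, Nd5 and Nd6 had Spearman correlations of 0.664 to 0.850. At week 2 the Nd4 and Nd6 values rest on 1 to 60 counts, and counting noise in them enters these values. The points share a library, its depth and its scaling factor, so these values are descriptions.

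The genes most like the members were found by the Spearman correlation of their log2 CPM with the members' median over the 27 libraries, among 10875 other genes with a mean log2 CPM of at least 2. ENSRNOG00000043866 came first, at 0.956. It is itself very abundant, at 98829 ± 11967 CPM in culture, 78834 ± 5843 CPM in uninjured week 4 and 146343 ± 25122 CPM in injured week 4 (SD, n = 4 each). ENSRNOG00000033299 came next, at 0.897, with 1213 ± 210.1, 736 ± 80.3 and 1999 ± 368 CPM in the same groups (SD, n = 4 each). The files do not pair either identifier with a name. Set against the median of the other members, Co1 reached 0.977 and Nd6 0.666.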

How the data were processed

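RNA-seq counts per gene were taken as the authors deposited them: whole-number read counts for 28 libraries and 32545 Ensembl rat identifiers, of which 6584 had no count in any library. Per the submitters' processing notes, the tools included FastQC 0.11.5, Trim Galore 0.4.1, STAR 2.5.1, Picard, StringTie 1.3.3 and featureCounts 1.5.1. The same notes name the mouse build GRCm38, although the identifiers are of rat genes, so no coordinates are given. The sources used here give no annotation release, no strand setting and no treatment of duplicates or multimapping reads. Per the labels' protocols, libraries were made with a stranded total RNA kit from small amounts of RNA.

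Depth ran from 84532 to 446331 counts in the 8 week 2 libraries and from 2605188 to 6908508 in the other 20. The groups come from the sample labels. One edgeR 4.0.16 quasi-likelihood fit (robust, TMM factors, filterByExpr by group, R 4.3.3) covered 27 libraries in 7 groups with 20 residual degrees of freedom and 14282 tested genes, all 10 members among them. A gene was called at a Benjamini-Hochberg adjusted p under 0.05 over all genes tested, in each of 12 comparisons. CPM use TMM-scaled library sizes, and log2 CPM a prior count of 2. The script was tested on simulated data.

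By the naming rule all 10 members may be named in every comparison; those not named are given by counts or ranges, and the plots show all 10. The genes most like them are given by identifier, at most 2, by the rule stated in the text. The members and lists were chosen with earlier results of these data known. Lists of 183 genes, of nuclear respiratory chain subunits and of cell type markers, were not run, because the files and the reference table do not pair these identifiers with symbols. For the same reason the mitochondrial ribosomal RNAs were not removed from the totals. Without gene lengths, levels are not compared between genes. Alternatives were RLE factors, unscaled totals, TMM without the members, DESeq2 1.42.0, limma 3.58.1 voom with quality weights, no low-count filter, all 28 libraries, no week 2 libraries, the library total as a covariate, and leaving out each library in turn. The fit relative to the members' sum, used as a description, and the total without 10 abundant genes were added once the values had been seen. The labels carry no replicate numbers, and replicates are numbered in accession order.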

Additional observations from a re-analysis of the deposited data

Results flagged for a closer look

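Of 66 groups of 4 libraries examined, 60 for the CPM of each member and 6 for the members' share of counts, 6 held a library far from the other 3, where chance gives about 3.3. In culture, 1 library had 341 CPM of Nd4, and the others had 256.7 to 266. In uninjured week 4, replicate 1 had 947 CPM of Nd2, and the others had 1860.2 to 1949. The other 4 cases are 1 library, injured week 2 replicate 1, which was the shallowest of the series with 84532 counts. It had 1755 CPM of Nd1, 3790.4 CPM of Atp6, 1614 CPM of Co3 and 1473 CPM of Cyb, each the lowest of its group, and its TMM factor was 1.60. The effect of injury on Nd2 differed between weeks 3 and 4 by 0.94 on the log2 scale, the only member for which that difference passed its test. In the same interaction test 11.5% of all genes were called higher and 18.7% either way. The Nd2 call did not hold in 25 of 36 other settings. Among these was the fit without uninjured week 4 replicate 1, the library low in Nd2 (interaction test, adjusted p = 0.131).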

How the results depend on the processing

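No paired analysis was possible because the labels give no replicate numbers. Of 1050 member values recomputed under 9 other settings, 887 kept their direction and side of the threshold or were uncalled in both, 55 lost the call with all 28 libraries and 51 under other settings, 51 gained it and 6 changed sign after being called; 35 uncalled values changed sign. Of 3240 values with 1 library left out, 173 lost and 38 gained the call, none that was called changed sign, and 46 uncalled ones did. The cause was not tested. A left-out library also changes the scaling of all others.

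The 6 sign changes came with the library total as a covariate, against culture: Co1 1.46 and Cyb 1.002 in uninjured week 2, and Nd1 0.90, Nd2 0.70, Co1 1.25 and Cyb 0.62 in injured week 2, none of them called. That covariate gave 0 calls in uninjured and injured week 2 against culture (7.39% and 8.16%). Percentages in brackets in this paragraph are the shares of all genes called either way in the same setting. It gave 5 in uninjured week 4 (39%) and 8 in injured week 4 (30.4%) against culture, and 0 for the change in injury effect (17.8%). With all 28 libraries, 0 members were called for injured against uninjured cord at weeks 3 and 4 (39.2% and 17.3%). The same held for injured weeks 2, 3 and 4 against culture (35.5%, 13.2% and 23.8%). It also held for injured week 4 against week 3 (16.2%) and for the change in injury effect (13%). Uninjured cord against culture gave 2, 1 and 1 at weeks 2, 3 and 4 (32.3%, 38.3% and 34.1%). RLE factors and DESeq2 each gave 3 calls in uninjured week 2 against culture (39.7% and 47.3%). Each gave 2 in injured week 4 against culture (34.4% and 43.5%) and 1 in injured week 4 against week 3 (23.1% and 33.4%). For the change in injury effect each gave 0 (19.8% and 28.9%). DESeq2 gave 1 call for injury at week 2 (10.8%) and 2 in injured week 3 against culture (27.4%). Unscaled totals gave 1 for injury at week 2 (3.24%) and 2 in injured week 4 against culture (35.6%). They gave 0 in injured week 4 against week 3 (25.9%) and 0 for the change in injury effect (20.2%). voom gave 4 and 9 calls in injured weeks 3 and 4 against culture (45.6% and 60.1%). It gave 5 in uninjured week 4 against week 3 (19.7%) and 7 in injured week 4 against week 3 (41.6%). No filter gave 2 and 2 calls in injured weeks 3 and 4 against culture (10.9% and 20.2%) and 0 for the change in injury effect (11%). Leaving out week 2 gave 2 and 8 in injured weeks 3 and 4 against culture (37.1% and 52.3%).

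With 1 library left out, calls for injury ran from 0 to 1, 4 to 10 and 9 to 10 at weeks 2, 3 and 4. Against culture they ran from 3 to 8, 9 to 10 and 6 to 9 for uninjured weeks 2, 3 and 4 and from 6 to 8, 0 to 2 and 1 to 6 for injured weeks 2, 3 and 4. From week 3 to week 4 they were 0 throughout in uninjured cord and 0 to 4 in injured cord, and 0 to 1 for the change in injury effect. The share of all genes called was not kept for these fits. Nd6 for injury at week 4 was called in 13 of 36 settings, with adjusted p of 0.00764 to 0.619.

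Over all settings the share of all genes called ran from 0% to 10.8%, 26.4% to 64.1% and 15.8% to 46.1% for injury at weeks 2, 3 and 4. Against culture it ran from 7.39% to 47.3%, 29.6% to 72.6% and 28.3% to 67.8% for uninjured weeks 2, 3 and 4 and from 8.16% to 49.5%, 10.9% to 45.6% and 20.2% to 60.1% for injured weeks. From week 3 to week 4 it ran from 0% to 19.7% in uninjured and 12.4% to 41.6% in injured cord, and for the change in injury effect from 11% to 36.5%. The share of called genes that were higher was 49.9% against 35.8% with unscaled totals for injury at week 2, and 49.2% with RLE and 46.2% with unscaled totals against 61.2% for the change in injury effect. With the 10 abundant genes left out of the total, the members held 4.92% of counts in culture, 4.18%, 2.32% and 2.74% in uninjured weeks 2, 3 and 4, and 3.63%, 4.50% and 6.17% in injured weeks 2, 3 and 4; with injured week 3 replicate 3 included, that group's share of all counts was 2.59%. Depth limits Nd4 and Nd6 at week 2, with 1 to 44 counts for Nd6. The total without mitochondrial ribosomal RNA was not run.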
